A study of Mus musculus with 12 samples.

Results

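The comparison described here is the cold response of brown adipose tissue in mice that carry an adipocyte deletion of the transcription factor Ebf2. Its members were chosen by their labels: the 3 cold-housed and the 3 room-temperature libraries of mutant mice, which are 6 of the 12 libraries of the series. All genes that passed a filter on low counts were described (15265 of 24197). Mutant mice carried Adipoq-Cre together with floxed Ebf2 on both chromosomes (Adipoq-Cre+; Ebf2 fl/fl), and controls carried the same floxed alleles without the Cre (Adipoq-Cre-; Ebf2 fl/fl). All mice were 8 to 10 weeks old and were kept at room temperature (RT) or at 4 °C for 1 week. The mutant libraries are called RT 1 to 3 and cold 1 to 3 after their replicate numbers, and the 6 control libraries were used to set their cold response beside that of the mutants. Adipoq-Cre acts in fat cells that have begun to express adiponectin, so other cells of the tissue keep an intact Ebf2 gene. The labels do not say whether the replicates came from separate animals, and p-values then measure only the spread between these libraries, which may be technical.

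Brown fat burns fatty acids and glucose to make heat. In the cold, sympathetic nerves release noradrenaline, which acts through beta-adrenergic receptors and cyclic AMP to start lipolysis, to activate the uncoupling protein Ucp1 in the inner mitochondrial membrane and to raise the transcription of thermogenic and mitochondrial genes. Ebf2 is a DNA-binding factor of the early B cell family that marks brown fat precursors and binds near brown fat genes.

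The 6 mutant libraries held 28793703 to 37927038 counts assigned to genes, and the 12 libraries of the series 25835650 to 37927038. A count of 3 corresponded to 0.0764 to 0.114 CPM, the unit used throughout: reads of a gene relative to the scaled library size. Ebf2 itself was counted at 65.2, 45.7 and 38.3 CPM in RT 1 to 3 and at 47.4, 64.1 and 32 CPM in the control RT libraries. These ranges overlapped. The count over the whole gene can include reads from exons that remain after recombination, so it does not check the genotype labels. Brown adipocyte genes were present in every library, with Ucp1 at 718 CPM or more and the adipocyte fatty acid binding protein Fabp4 at 5380 CPM or more. Among the mutants, RT 3 and cold 3 stood apart. RT 3 held skeletal muscle transcripts at 2.43% of its counts, against 0.169% and 0.014% in RT 1 and 2. Cold 3 held them at 0.781%, against 0.0307% and 0.0524% in cold 1 and 2. Cold 3 also held epithelial transcripts, with the keratin Krt8 at 79.3 CPM and the adhesion molecule Epcam at 18.9 CPM, where the other mutant libraries had at most 4.53 and 1.56 CPM. Results that turned on these libraries are given with and without them. In bulk tissue, fewer cells of a type and less RNA per cell cannot be told apart.

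A week of cold changed the level of 2663 genes in mutant brown fat, or 17.4% of those tested, at an adjusted p below 0.05 in edgeR's quasi-likelihood test. Of these, 1531 were higher in the cold (10.0% of tested genes) and 1132 were lower (7.42%). Each count of called list members below is to be read against these shares. A log2 fold change of at least 1 was reached by 680 of the higher and 445 of the lower genes. The median log2 fold change over all tested genes was -0.01. In 2544 genes (16.7%) every cold library lay above every RT library, and in 2435 genes (16.0%) every cold library lay below. The number of called genes moved with single libraries. It was 1547 without RT 2, 1734 without RT 3, 1466 without cold 1, 1719 without cold 2 and 3630 without cold 3, and 2819 without both RT 3 and cold 3. All 2663 genes called with the full set kept their direction in each of these fits in which they were tested. The fits share most of their libraries with the full set, by which the genes were chosen, so a change of direction was unlikely.

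The thermogenic genes rose as a group, with Ucp1 and Elovl3 among them. Of 33 genes of the thermogenic programme, 22 were called higher in the cold (66.7%, against 10.0% of all tested genes) and 1 was called lower. Their median log2 fold change was 1.21. With single mutant libraries left out, 16 to 24 were called higher and 0 to 2 lower. The interaction of genotype and temperature was called for 0 of the 33. An unadjusted interaction p below 0.05 was found for 17 of them, and for 1869 of all 15265 tested genes. Ucp1, the uncoupling protein itself, was measured at 2020, 718 and 1190 CPM at RT and at 11000, 11700 and 5870 CPM in the cold. All cold libraries exceeded all RT libraries, and cold 3 was the lowest of the cold libraries. The log2 fold change of Ucp1 was 2.86 ± 0.41 (SE; 3 libraries per group here and throughout; adjusted p = 0.000793). In controls Ucp1 stood at 2680, 5620 and 5060 CPM at RT and at 12200, 11500 and 12100 CPM in the cold, a log2 fold change of 1.42 (adjusted p = 0.0492). The difference between these fold changes, tested as the interaction of genotype and temperature, had an adjusted p of 0.305. Elovl3, an elongase of very long chain fatty acids and a classical cold-induced gene of brown fat, went from 70.4, 41.8 and 76.2 CPM to 1190, 1090 and 934 CPM. This is a 17-fold rise of the mean, with little spread among the cold libraries (log2 fold change 4.09 ± 0.29, adjusted p = 2.05e-05). Bmp8b, a secreted factor that raises the noradrenaline response of brown fat, had 2 counts in the 3 RT libraries together and 3490 in the 3 cold libraries. The ratio of these counts, adjusted for library size, was 1780 with a 95% counting interval of 492 to 14700.

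Further members of the programme rose in every cold library. Fabp3, a fatty acid binding protein of oxidative tissues, went from 287, 90.1 and 111 CPM to 2290, 1680 and 1010 CPM (log2 fold change 3.35 ± 0.45, adjusted p = 0.00066). Letmd1, a mitochondrial protein needed for brown fat thermogenesis, went from 316, 276 and 223 CPM to 1210, 1290 and 808 CPM (2.02 ± 0.23, adjusted p = 0.000257). Gyk, the glycerol kinase that returns glycerol to triglyceride synthesis, went from 260, 145 and 129 CPM to 767, 574 and 512 CPM (1.80 ± 0.29, adjusted p = 0.00156). None of these genes overlapped between RT and cold. Cpt1b, the muscle and brown fat form of the carnitine palmitoyltransferase that admits fatty acids to mitochondria, rose from 618, 412 and 439 CPM to 1210, 1160 and 1080 CPM (1.23 ± 0.20, adjusted p = 0.00163). Pank1, which makes the coenzyme A precursor phosphopantothenate, rose by 1.28 ± 0.16 and Plin5, the perilipin that tethers lipid droplets to mitochondria, by 1.11 ± 0.19 on the log2 scale. Gpr3, a receptor that signals through Gs without a ligand, rose from 0.0509, 0.0721 and 0.125 CPM to 2.87, 1.09 and 1.42 CPM, a low level in both groups (4.39 ± 0.71, adjusted p = 0.0016). The call of each of these genes held without each mutant library in turn.

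**Figure D1:**
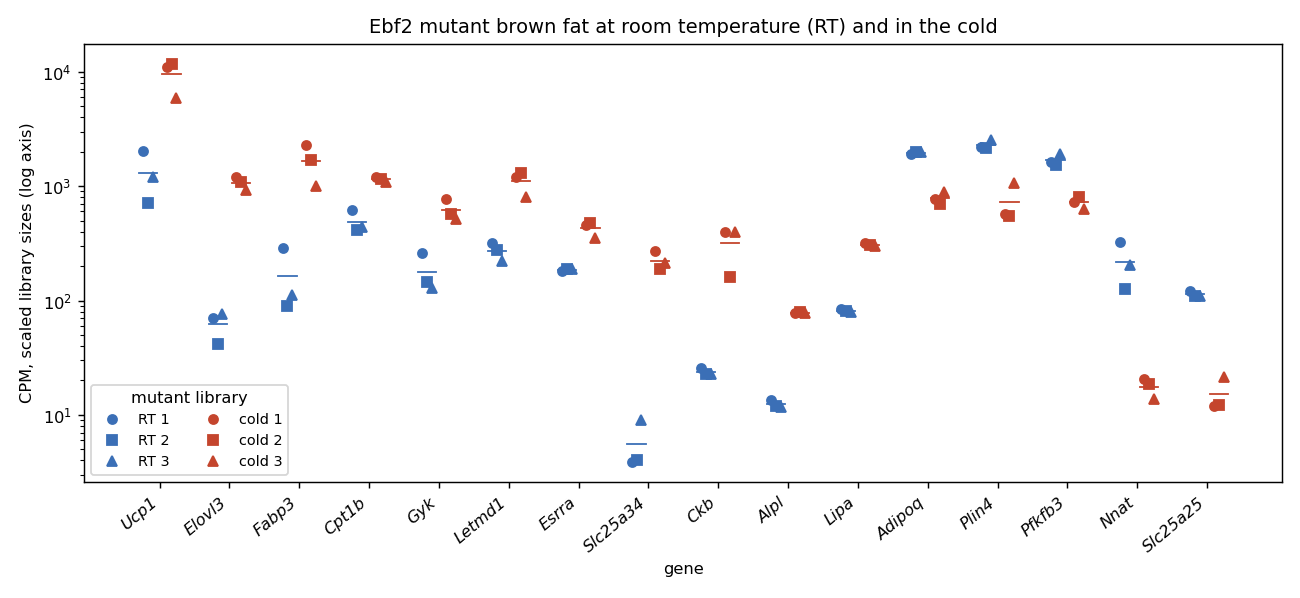
CPM on a log axis (y) of 16 genes (x) in each Ebf2 mutant library; blue symbols are the 3 room-temperature and red symbols the 3 cold libraries, the symbol shape gives the replicate number and the lines are group means. In all 16 genes the 3 cold libraries lie on one side of the 3 RT libraries: Ucp1 is at 718 to 2020 CPM at RT and 5870 to 11700 CPM in the cold, while Adipoq falls from 1900 to 1980 CPM to 695 to 887 CPM.

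Some well known thermogenic genes did not pass the test, and others passed it with calls that were lost when single libraries were left out. Ppargc1a, the coactivator of mitochondrial biogenesis, was at 148, 220 and 175 CPM at RT and at 104, 130 and 178 CPM in the cold (log2 fold change -0.40 ± 0.33, adjusted p = 0.459). Dio2, which activates thyroid hormone in the tissue, was at 325, 429 and 270 CPM and at 354, 190 and 450 CPM (-0.04 ± 0.44, adjusted p = 0.956). The groups overlapped in both genes. Prdm16, a coregulator of brown fat identity, had a log2 fold change of -0.67 ± 0.28 (adjusted p = 0.128; 0.0114 with voom and 0.0162 with the replicate block and only the mutant groups in the fit), and the beta-3 adrenergic receptor Adrb3 one of -0.25 ± 0.27 (adjusted p = 0.583). The lipid droplet protein Cidea had a log2 fold change of 0.59 ± 0.26 (adjusted p = 0.144), which passed the test without cold 3 (adjusted p = 0.0375). Fgf21, a hormone released by brown fat in the cold, was at 1.17, 0.216 and 0.877 CPM at RT and at 3.49, 7.68 and 10.6 CPM in the cold (3.24 ± 0.90, adjusted p = 0.0305). The groups did not overlap, but the call of Fgf21 was lost without RT 1 (adjusted p = 0.0565), RT 2 (0.0935), RT 3 (0.0838), cold 2 (0.0706) or cold 3 (0.0549). Cox7a1, a cytochrome oxidase subunit of heart, muscle and brown fat, was at 336, 226 and 143 CPM at RT and at 1160, 1350 and 237 CPM in the cold. Cold 3 lay within the RT range. The call of Cox7a1 (1.96 ± 0.53, adjusted p = 0.0281) was lost without RT 2 (adjusted p = 0.0954), RT 3 (0.0996), cold 1 (0.0961) or cold 2 (0.104) and was firmest without cold 3 (0.000333).

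Ebf2 fell in the cold in the mutants. It was at 65.2, 45.7 and 38.3 CPM at RT and at 28.7, 21.6 and 27 CPM in the cold, without overlap, a log2 fold change of -0.95 ± 0.25 (adjusted p = 0.0226). Without RT 1 the fold change was -0.71 (adjusted p = 0.0833), and without cold 2 it was -0.85 (adjusted p = 0.0833). In controls the log2 fold change was -0.08 (adjusted p = 0.886), and the interaction had an adjusted p of 0.336. Its relatives did not pass the test: Ebf1 had a log2 fold change of 0.15 ± 0.19 (adjusted p = 0.636) and Ebf3 one of 0.34 ± 0.14 (adjusted p = 0.115), which passed the test only without cold 3 (adjusted p = 0.0108) among the fits that left out 1 library. Of 28 transcription factors of brown and white fat, 1 rose and 5 fell, with a median of -0.25. The count of lower genes was 3 without cold 2 and 9 without cold 3. Tle3, a corepressor that favours white over brown fat genes, fell from 132, 145 and 134 CPM to 41.8, 59.5 and 56.9 CPM (-1.38 ± 0.19, adjusted p = 0.000681). The early adipogenic factor Klf4 fell by 1.17 on the log2 scale (adjusted p = 0.00169). The groups did not overlap in Tle3 or Klf4. Hlx, a homeobox factor of thermogenic fat, was the member that rose (0.93 ± 0.26, adjusted p = 0.0287), a call lost without RT 2 (adjusted p = 0.0728), RT 3 (0.11) or cold 1 (0.103). Pparg, the central regulator of adipocytes, had a log2 fold change of -0.18 ± 0.19 (adjusted p = 0.575).

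The nuclear receptors of the ERR family, which drive mitochondrial genes, rose while their coactivator Ppargc1a did not pass the test. Of 22 regulators in the PGC1, PPAR, ERR and NRF list, 10 were called higher and 1 lower, with a median log2 fold change of 0.34, and 8 to 11 were called higher when single mutant libraries were left out. Esrra was at 180, 189 and 187 CPM at RT and at 458, 476 and 349 CPM in the cold (1.21 ± 0.15, adjusted p = 0.000437). Esrrg was at 11.9, 11.5 and 17.3 CPM and at 29.8, 26.4 and 27 CPM (1.03 ± 0.18, adjusted p = 0.00219). Both were above their whole RT range in every cold library. Perm1, a muscle and fat partner of PGC1 and ERR factors, rose from 23, 11.3 and 25.9 CPM to 109, 124 and 72.7 CPM (2.35 ± 0.33, adjusted p = 0.00085). The member called lower was Pprc1, the third coactivator of the PGC1 family (-0.63 ± 0.15, adjusted p = 0.0148), a call lost without RT 2 (adjusted p = 0.059), cold 1 (0.0683) or cold 2 (0.0505).

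The genes with the largest rises came from near 0 at RT. Among named genes outside the marker lists of other cell types, with a mean of at least 1 CPM in the mutant libraries, the largest rise after that of Bmp8b was in Kcnh6, a potassium channel gene, with 0 counts at RT and 437 in the cold, at least 148-fold higher against a floor of 3 counts for the RT group. The calcium-dependent membrane binding protein Cpne5 went from 0, 0 and 0.188 CPM to 54.3, 40.4 and 25.1 CPM (adjusted p = 0.000223). The kinase Sgk2 went from 0.0509, 0.432 and 0.0627 CPM to 40.9, 30.8 and 24.5 CPM (adjusted p = 0.000632). Acot12, which hydrolyses acetyl-CoA, went from 0.153, 0 and 0 CPM to 9.67, 4.38 and 5.51 CPM (adjusted p = 0.000441). Sult4a1, Grik4, Olfr287 and the kininogen Kng1 were the others among the 10 largest rises so chosen. Fam131c, a gene of little known function, had the smallest p of the 10: it went from 0.255, 0.216 and 0.125 CPM to 24.4, 15.9 and 18.7 CPM (6.59 ± 0.37, adjusted p = 3.99e-06). Each call named in this paragraph held without each mutant library in turn.

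The promoters of the strongly induced genes are shown because several of them were almost silent at RT. RefSeq promoter windows (build GRCm38.p6, 250 bases before to 50 bases after the start) could be matched by symbol to 11233 of the 15265 tested genes. The ERR element TCAAGGTCA, searched on both strands, was present in 36 of these windows (0.32%), in 6 of 1163 windows of genes called higher (0.516%) and in 1 of 846 windows of genes called lower (0.118%). Of the 6, Abcc10, Msrb2, Sdhd and Tesk1 had log2 fold changes of 1.09, 0.96, 0.81 and 0.65. The others, Fam131c and Hcn2, had the largest and are the ones shown. Hcn2, a pacemaker channel gene chosen after its values were seen, went from 1.76, 1.08 and 1.07 CPM to 60.5, 45.2 and 89.5 CPM (log2 fold change 5.63 ± 0.37, adjusted p = 1.81e-05). The 250 bases before the start of each are printed with the match in capitals, here on the opposite strand and so read as TGACCTTGA. The stretch of Fam131c lies at chr4:141367942-141368191 and that of Hcn2 at chr10:79716384-79716633, both on the plus strand.
Fam131c: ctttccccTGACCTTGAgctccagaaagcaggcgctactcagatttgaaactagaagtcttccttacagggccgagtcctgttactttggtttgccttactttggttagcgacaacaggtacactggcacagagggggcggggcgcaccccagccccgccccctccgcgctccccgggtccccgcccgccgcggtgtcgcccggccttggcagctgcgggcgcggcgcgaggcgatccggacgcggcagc
Hcn2: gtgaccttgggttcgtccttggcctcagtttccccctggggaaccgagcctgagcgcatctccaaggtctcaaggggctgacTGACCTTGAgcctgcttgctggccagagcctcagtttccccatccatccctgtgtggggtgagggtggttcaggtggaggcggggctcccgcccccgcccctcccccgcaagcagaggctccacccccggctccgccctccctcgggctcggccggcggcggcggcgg
The match began 242 bases before the start in Fam131c and 168 bases before it in Hcn2. The stretch of Bmp8b, at chr4:123104911-123105160 on the plus strand, held a CCAAT box on the opposite strand, beginning 76 bases before the start and printed in capitals as ATTGG.
Bmp8b: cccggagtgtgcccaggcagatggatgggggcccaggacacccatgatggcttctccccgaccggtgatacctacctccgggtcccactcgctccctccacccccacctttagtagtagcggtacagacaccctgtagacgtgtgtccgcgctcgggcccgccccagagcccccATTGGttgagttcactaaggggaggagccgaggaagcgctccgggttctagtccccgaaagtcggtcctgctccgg
A CCAAT box on either strand was present in 42.2% of all matched windows and in 44.8% and 44.1% of those of genes called higher and lower. The cyclic AMP response element TGACGTCA was present in 3.34% of all windows, 2.15% of those of higher genes and 2.96% of those of lower genes. The E-box CACGTG was present in 11.4%, 11.8% and 13.1%, and the EBF element, a palindrome, in 1.27%, 1.2% and 1.89%. The classical sterol element was found in 6 of all windows and the PPAR element, a direct repeat, in 5. These shares describe letters in a fixed window and were not tested.

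The median levels of respiratory chain genes were raised in cold 1 and 2 and not in cold 3. All 37 subunits of complex I had a positive log2 fold change (median 0.64), and 9 of them were called higher. For complexes II and III 7 of 14 were called higher (median 0.81), for complex IV 2 of 16 (median 0.61) and for the ATP synthase 3 of 17 (median 0.52), where 10.0% of all tested genes were called higher. The share for complex IV (12.5%) was near that background. With all libraries, none of these genes was called lower by edgeR, DESeq2 or voom, and in edgeR 0 were lower at an unadjusted p below 0.05. An edgeR fit with the replicate number as a block and only the mutant groups called 1 ATP synthase gene lower. Relative to the mean of the RT libraries, the complex I genes had a median log2 ratio of 0.92 in cold 1 and 1.03 in cold 2 but of -0.26 in cold 3, and the RT libraries lay between -0.24 and 0.23. Complex IV had medians of 0.92, 1.11 and -0.38, and the ATP synthase 0.83, 0.85 and -0.41. These list medians of cold 3 lay below 0, while single members could still exceed the RT range in it. Ndufv2, a core subunit of the NADH-binding module, was at 292, 279 and 240 CPM at RT and at 607, 612 and 338 CPM in the cold (0.94 ± 0.21, adjusted p = 0.0102), a call lost without RT 3 (adjusted p = 0.052) or cold 1 (0.0569). Sdhb, the iron-sulfur subunit of complex II, was at 490, 495 and 387 CPM and at 1050, 1120 and 510 CPM (0.97 ± 0.25, adjusted p = 0.0218), a call lost without RT 2 (adjusted p = 0.0609), RT 3 (0.0942), cold 1 (0.0981) or cold 2 (0.0955).

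The counts of respiratory genes called higher followed the library that was left out. For complex I the count was 6, 1 and 0 without RT 1, 2 and 3, 0 and 1 without cold 1 and 2, and 34 without cold 3. For complexes II and III it was 14 without cold 3, 6 without RT 1 and 0 without any other single mutant library. For complex IV it was 13 without cold 3, and 0 without RT 2 or cold 1 and 1 without RT 3 or cold 2. For the ATP synthase it was 11 without cold 3, 2 without RT 1, and 0 without any other single mutant library. Leaving out both RT 3 and cold 3 gave 33 of 37, 13 of 14, 11 of 16 and 11 of 17. Cold 3 was also the library with epithelial transcripts and with the most muscle transcripts of the cold group, and the part of these in the result was not tested.

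**Figure D2:**
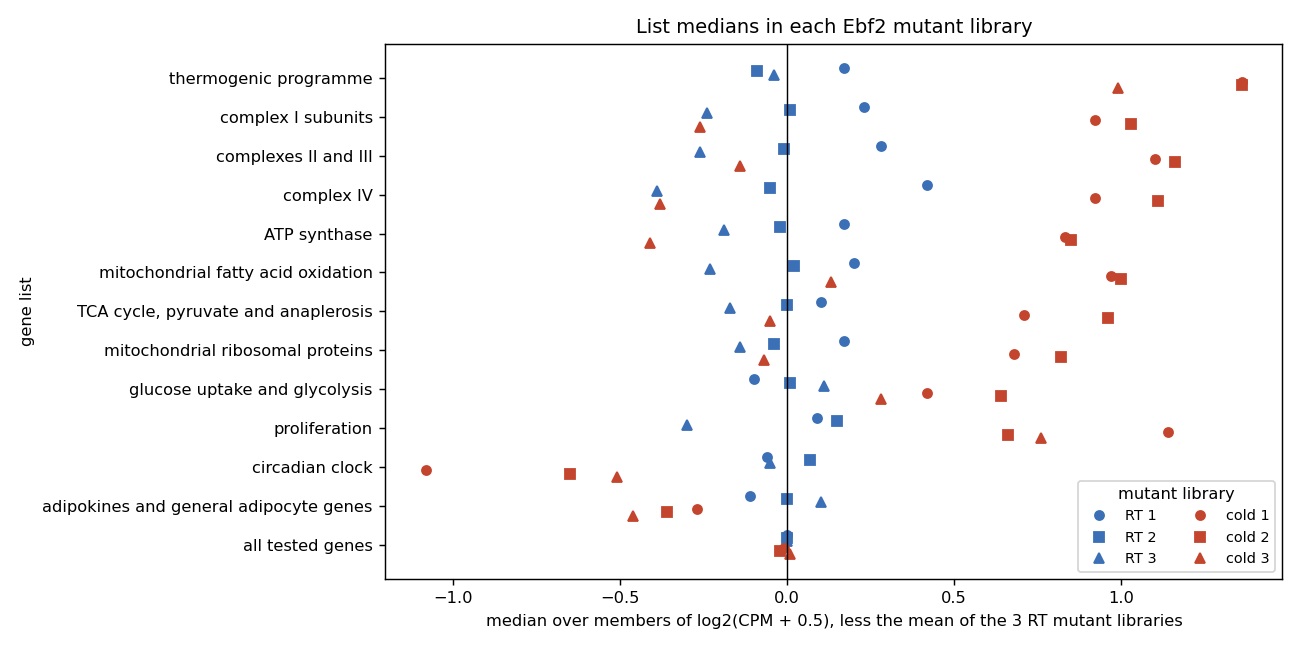
For 12 gene lists and all tested genes (y), the median over members of log2(CPM + 0.5) in each Ebf2 mutant library, less the mean of the 3 room-temperature mutant libraries (x); blue symbols are RT and red symbols cold libraries, with shapes for replicates 1 to 3. The thermogenic programme is raised in all 3 cold libraries (1.36, 1.36 and 0.99), whereas complex I is raised in cold 1 and 2 (0.92 and 1.03) and not in cold 3 (-0.26).

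Of 30 genes of mitochondrial import, ribosome assembly and dynamics, 16 were called higher (median 0.62). None was called lower by edgeR, DESeq2 or voom, and in edgeR 0 were lower at an unadjusted p below 0.05. The count of higher genes was 7 without RT 2, cold 1 or cold 2 and 8 without RT 3. The prohibitin Phb, a scaffold of the inner membrane, went from 204, 213 and 197 CPM to 495, 479 and 389 CPM (1.15 ± 0.14, adjusted p = 0.000327). Polrmt, the mitochondrial RNA polymerase, went from 39, 32.8 and 34.6 CPM to 67.7, 70.9 and 73 CPM (0.99 ± 0.11, adjusted p = 0.000252), and the import chaperone Timm8a1 rose by 1.44 ± 0.20 on the log2 scale (adjusted p = 0.000721). All 3 were raised in every cold library, cold 3 included. Of 77 mitochondrial ribosomal proteins 27 were called higher (median 0.52), with 46 higher and 0 lower at an unadjusted p below 0.05. The count was 14 without RT 2 or RT 3, 12 without cold 1 or cold 2, and 58 without cold 3. Mrpl37 (0.85 ± 0.11, adjusted p = 0.000483) and Mrpl19 (0.91 ± 0.13, adjusted p = 0.000927) had the smallest p among them. Of 83 cytosolic ribosomal proteins 1 was called higher and 3 were called lower (median -0.26), and their median was -0.62 in cold 3 against -0.08 and -0.09 in cold 1 and 2. Without cold 3 the count of higher genes was 7.

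Of 25 genes of mitochondrial fatty acid oxidation, 14 were called higher (median 0.83) and none lower by edgeR, with 1 lower at an unadjusted p below 0.05 and 1 called lower by DESeq2, by voom and without cold 3. The count of higher genes was 7 without RT 2, 6 without RT 3, cold 1 or cold 2, and 23 without cold 3. Acsl5, which activates fatty acids to acyl-CoA, went from 133, 132 and 126 CPM to 895, 1170 and 606 CPM (2.77 ± 0.25, adjusted p = 8.51e-05). Slc25a20, the carnitine-acylcarnitine carrier, went from 387, 337 and 290 CPM to 986, 977 and 648 CPM (1.36 ± 0.19, adjusted p = 0.000652). Both rose in every cold library. Of 29 peroxisomal genes 9 rose and 3 fell (median 0.26). Leaving out RT 2 gave 4 and 1, RT 3 or cold 1 gave 5 and 1, RT 1 gave 6 and 2, and cold 2 gave 6 and 1. The thioesterase Acot8 rose by 1.27 ± 0.15 (adjusted p = 0.000284) and the thiolase Acaa1b by 1.40 ± 0.25 (adjusted p = 0.00309). Of 26 genes of ketone and branched-chain amino acid breakdown 7 rose and 1 fell (median 0.25). Dbt, the core subunit of the branched-chain keto acid dehydrogenase, went from 139, 122 and 143 CPM to 382, 331 and 287 CPM (1.30 ± 0.15, adjusted p = 0.000223), and the ketone-using enzyme Oxct1 rose by 1.12 ± 0.17 (adjusted p = 0.00119). That count of 7 was 4 without RT 2, RT 3 or cold 2 and 11 without cold 3.

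In the TCA cycle and pyruvate list, 10 of 29 genes rose and 2 fell (median 0.56). Idh3a, a subunit of the NAD-dependent isocitrate dehydrogenase, went from 907, 702 and 794 CPM to 2200, 2230 and 1530 CPM (1.31 ± 0.19, adjusted p = 0.000827). Dlst, of the oxoglutarate dehydrogenase complex, rose by 1.14 ± 0.18 (adjusted p = 0.00127). Pyruvate carboxylase, Pcx, which feeds oxaloacetate to the cycle and to citrate export, moved the other way, from 2620, 3420 and 2920 CPM to 1250, 1460 and 1490 CPM (-1.10 ± 0.19, adjusted p = 0.00255). The RT and cold values of these 3 genes did not overlap. The count of higher genes was 4 without RT 2, 2 without RT 3, cold 1 or cold 2, and 20 without cold 3. Without RT 2, RT 3 or cold 1, 1 gene was called lower.

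Glycolytic genes rose in part. Of 25 genes of glucose uptake and glycolysis, 10 rose and 1 fell (median 0.50), with 7 to 11 called higher when single mutant libraries were left out. Ldhb, the lactate dehydrogenase subunit of oxidative tissues, went from 282, 248 and 226 CPM to 844, 773 and 665 CPM (1.59 ± 0.16, adjusted p = 0.000117). In controls its log2 fold change was 0.41 (adjusted p = 0.13), and the interaction was called (1.19, adjusted p = 0.0449). Pgam1, a phosphoglycerate mutase, rose by 1.20 ± 0.15 (adjusted p = 0.000452), and the lactate and pyruvate transporter Slc16a1 by 1.69 ± 0.25 (adjusted p = 0.000881). Pfkfb3, which sets the level of the glycolytic activator fructose bisphosphate, fell from 1630, 1530 and 1900 CPM to 725, 802 and 630 CPM (-1.23 ± 0.17, adjusted p = 0.000599). Of 22 tested genes of glycogen and the pentose phosphate pathway, 3 rose (13.6%) and 1 fell (4.55%). Both shares were near those of all tested genes, 10.0% and 7.42%. The faller was the glycogen phosphorylase Pygb, from 278, 434 and 399 CPM to 88.6, 80.9 and 174 CPM (-1.69 ± 0.35, adjusted p = 0.00671). The 3 higher genes became 1 without RT 2, RT 3, cold 1 or cold 2 and 5 without cold 3.

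Fatty acid synthesis genes divided in the mutants. Of 25 genes of fatty acid synthesis, 3 rose and 5 fell in mutants (median -0.06), and 11 rose in controls (median 0.89). The count of 3 higher in mutants is near the 10.0% of all genes, and the interaction was called for 1 of the 25. The 3 that rose were the elongases Elovl3 and Elovl4 and the desaturase Scd2, which went from 239, 307 and 348 CPM to 785, 750 and 687 CPM (1.31 ± 0.27, adjusted p = 0.00573). Slc25a1, the carrier that exports citrate for lipid synthesis, fell from 1570, 2340 and 1840 CPM to 740, 1130 and 646 CPM (-1.19 ± 0.24, adjusted p = 0.0054). In controls Slc25a1 rose by 1.29 (adjusted p = 0.0098), and the interaction was -2.48 (adjusted p = 0.0103). Fads3, a desaturase family member, fell by 2.07 on the log2 scale (adjusted p = 0.00778). The counts were 4 lower without RT 1 or cold 2, 2 lower without RT 2 or cold 1, 3 lower without RT 3, and 6 higher and 3 lower without cold 3.

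Of 26 cholesterol genes, 5 rose and 3 fell in mutants (median 0.07), and 16 rose in controls (median 0.94). The interaction was called for 3 of the 26, against 0.478% of all genes, and 17 had an unadjusted interaction p below 0.05. Insig1, which retains the sterol sensor in the endoplasmic reticulum, fell from 579, 730 and 712 CPM to 444, 410 and 389 CPM in mutants (-0.70 ± 0.16, adjusted p = 0.00945, or 0.0512 without RT 2) and rose by 1.02 in controls (adjusted p = 0.00399). Its interaction was -1.72 (adjusted p = 0.00762). The remaining calls, named after their values were seen, were the sterol dehydrogenase Nsdhl (interaction -1.81, adjusted p = 0.02) and the phosphomevalonate kinase Pmvk (-1.51, adjusted p = 0.0492), both with no call in the mutants. Fdft1, the squalene synthase, fell from 136, 178 and 120 CPM to 50.4, 72.9 and 65.5 CPM (-1.20 ± 0.18, adjusted p = 0.00116). The count of 5 higher genes was 3, 0 and 1 without RT 1, 2 and 3, and 2, 0 and 4 without cold 1, 2 and 3. The 3 lower genes were 2 without RT 1 and 1 without RT 2.

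Lipid storage genes shifted between members. Of 19 genes of triglyceride synthesis and glycerol metabolism, 7 rose and 3 fell. Pck1, the phosphoenolpyruvate carboxykinase of glyceroneogenesis, fell from 8270, 7780 and 7600 CPM to 3980, 4150 and 4030 CPM (-0.96 ± 0.16, adjusted p = 0.00199). The RT and cold values of Pck1 formed tight, separate clusters. The lipin Lpin2 rose by 0.71 ± 0.12 (adjusted p = 0.00207), and Gyk, described above, also belongs here. The 3 lower genes were 1 without RT 2 or cold 2 and 2 without RT 1, RT 3 or cold 1. Of 21 genes of lipolysis and the lipid droplet, 4 rose and 4 fell. Lipa, the lysosomal acid lipase, went from 83.6, 81.6 and 79.4 CPM to 318, 304 and 298 CPM (1.91 ± 0.18, adjusted p = 0.000108). Among the perilipins, Plin2 rose from 1300, 1090 and 886 CPM to 2360, 2560 and 1770 CPM (1.03 ± 0.20, adjusted p = 0.00496), and Plin4 fell from 2180, 2150 and 2510 CPM to 570, 550 and 1060 CPM (-1.65 ± 0.25, adjusted p = 0.00104). The count of lower droplet genes fell to 1 without RT 1, 2 or 3 or without cold 1 or 2. Of 18 genes of lipoprotein lipolysis and fatty acid uptake, 4 rose and 2 fell. The lower ones were Angptl4, an inhibitor of lipoprotein lipase (-1.20 ± 0.22, adjusted p = 0.00343), and Apoe, from 1690, 1520 and 1820 CPM to 754, 532 and 561 CPM (-1.45 ± 0.27, adjusted p = 0.0038). Without RT 2 or cold 1 that count of 4 was 2, and the 2 lower genes became 4 without cold 3.

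Part of the adipokine and general adipocyte genes fell. Of 28 genes 10 were called lower (35.7%, against 7.42% of all genes) and 0 higher by edgeR, with 0 higher also at an unadjusted p below 0.05 and by DESeq2 or voom. The count of lower genes was 6 without RT 2 or cold 2 and 5 without RT 3 or cold 1. Adipoq, the gene of adiponectin, went from 1900, 1970 and 1980 CPM to 777, 695 and 887 CPM, with narrow, separate ranges (-1.31 ± 0.16, adjusted p = 0.000429). Tusc5, which takes part in the traffic of the glucose transporter Glut4, went from 672, 825 and 1120 CPM to 158, 211 and 223 CPM (-2.15 ± 0.31, adjusted p = 0.000869). Rbp4, the retinol carrier, fell from 144, 201 and 115 CPM to 59.6, 51.6 and 69.9 CPM (-1.35 ± 0.24, adjusted p = 0.00328), and its response differed from that of controls (interaction -2.16, adjusted p = 0.023). Leptin, Lep, was at 225, 100 and 185 CPM at RT and at 23.9, 37.8 and 18.9 CPM in the cold. Its groups did not overlap, and its adjusted p was 0.0697 (-2.66 ± 0.87). Lep was called lower with DESeq2 (adjusted p = 0.0102), without robust estimation in edgeR (0.038), with only the mutant groups in the fit (0.00768) and with the replicate block in that fit (0.036).

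Among secreted factors of brown fat 8 of 25 rose and 5 fell. Kng2, a kininogen, went from 13.6, 8.79 and 5.95 CPM to 164, 159 and 116 CPM (3.95 ± 0.38, adjusted p = 0.000126), and the interaction with genotype was 2.58 (adjusted p = 0.0492). Its neighbour Kng1 went from 0.204, 0 and 0 CPM to 8.96, 5.07 and 4.04 CPM (adjusted p = 0.00124). Kng1 and Kng2 are closely related copies, and how the authors' counting divided their reads is not given in the sources used here. The growth factor Fgf9 went from 0.611, 0.865 and 0.627 CPM to 8.63, 5.14 and 10.6 CPM (3.54 ± 0.35, adjusted p = 0.000117). Ptgds, which makes prostaglandin D2, went from 1.07, 0.685 and 0.125 CPM to 14.7, 18.1 and 7.18 CPM (4.38 ± 0.57, adjusted p = 0.000671). All 3 cold libraries were above all RT libraries in these genes. Nrg4, a brown fat hormone that acts on the liver, fell from 196, 183 and 146 CPM to 106, 114 and 76.8 CPM (-0.82 ± 0.16, adjusted p = 0.0049). The count of higher factors was 5 without RT 2, RT 3 or cold 2.

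Of 8 creatine cycle genes 2 rose and 1 fell, with a median log2 fold change of -0.91. Only 2 of the 8 had a positive log2 fold change. Relative to the RT mean, the list median was -1.06, -0.55 and 0.96 in cold 1 to 3, so cold 3 went the other way. Alpl, the tissue-nonspecific alkaline phosphatase, had the smallest p of the named genes: it went from 13.5, 11.9 and 11.8 CPM to 77.2, 78.8 and 77.5 CPM (2.65 ± 0.12, adjusted p = 8.72e-07). Ckb, brain-type creatine kinase, went from 25.8, 23 and 23 CPM to 395, 162 and 397 CPM (3.73 ± 0.38, adjusted p = 0.000169). Gamt, the last enzyme of creatine synthesis, fell from 16.7, 14.5 and 15.9 CPM to 3.88, 3.69 and 4.58 CPM (-1.95 ± 0.24, adjusted p = 0.000367). The groups were far apart in all 3. Without cold 3 the count of lower genes in this list was 2. Of 43 mitochondrial solute carriers 12 rose and 4 fell (median 0.22). Slc25a34, a carrier with no settled substrate, went from 3.84, 4 and 8.96 CPM to 270, 189 and 211 CPM (5.32 ± 0.42, adjusted p = 6.03e-05). Slc25a17, the peroxisomal carrier of coenzyme A and other cofactors, went from 85.2, 77.3 and 83.5 CPM to 286, 269 and 237 CPM (1.69 ± 0.12, adjusted p = 2.05e-05). Slc25a25, an ATP-magnesium and phosphate carrier, fell from 122, 110 and 110 CPM to 12, 12.2 and 21.3 CPM (-2.91 ± 0.41, adjusted p = 0.000945). The interaction with genotype was called for 4 of the 43 carriers, Slc25a1, Slc25a17 (0.89, adjusted p = 0.0462), Slc25a34 and Slc25a42 (1.84, adjusted p = 0.0449, named after its values were seen). The 4 lower carriers became 2 without RT 2, RT 3, cold 1 or cold 2.

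Several genes next to each other in the genomic order of tested genes were both raised. Of the 15265 tested genes, 15202 could be placed in order with RefSeq (GRCm38), and 23 pairs of adjacent tested genes were both called higher with a log2 fold change of 2 or more. Untested genes can lie between the members of a pair. Whether 23 exceeds the number that a random gene order would give was not tested. Bmp8b was followed by the ketone enzyme gene Oxct2b, which had 0 counts at RT and 87 in the cold, at least 29.5-fold higher. Elovl3 was followed by Pitx3 (2.75 ± 0.51, adjusted p = 0.0037). Slc25a34 was preceded by Tmem82 (5.22 ± 0.44) and AI507597 (5.47 ± 0.45), whose interactions with genotype were also called (3.41 and 3.47, adjusted p = 0.023 for both). The pairs were chosen after their values were seen, and whether the counting used strand is not given in the sources used here, so reads of overlapping neighbours cannot be told apart. Of the 23 pairs, 6 joined crystallin genes of the eye lens.

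The adrenergic and cyclic AMP list divided, with 6 of 32 genes higher (18.8%) and 5 lower (15.6%; median -0.16). Among all tested genes 10.0% were called higher and 7.42% lower. Adcy3, an adenylyl cyclase, went from 196, 220 and 156 CPM to 822, 554 and 910 CPM (adjusted p = 0.000421), and the phosphodiesterase Pde4a from 29.6, 29.5 and 32.1 CPM to 85.7, 83.9 and 64.4 CPM (1.36 ± 0.19, adjusted p = 0.000794). The 3 orphan receptors of the Nr4a family, early targets of cyclic AMP, fell. Nr4a1, added after its values were seen, went from 127, 43.3 and 93.7 CPM to 18, 16 and 19.8 CPM (adjusted p = 0.0308). Nr4a3 fell from 9.39, 27.9 and 19.6 CPM to 1.34, 1.23 and 3.58 CPM (-3.20 ± 0.50, adjusted p = 0.00152), and Nr4a2 fell by 1.19 on the log2 scale (adjusted p = 0.00565). The 5 lower genes were 3 without RT 1, 2 or 3, 2 without cold 1 or 2 and 8 without cold 3, and the 6 higher genes were 4 without cold 2. Of 21 immediate early genes 1 rose and 4 fell, among them Fosb (-2.13 ± 0.44, adjusted p = 0.00639), and the count of higher ones was 2 without RT 1. Sik1, a kinase induced by cyclic AMP, was not called in mutants (-0.43 ± 0.18, adjusted p = 0.123; 0.0279 without cold 3) and rose in controls (1.44, adjusted p = 0.00152), with an interaction of -1.86 (adjusted p = 0.0103). In the thyroid hormone list, 1 of 12 rose, the receptor partner Rxrb (0.69 ± 0.12, adjusted p = 0.00233), and 1 fell, the thyroid hormone transporter Slc16a10 (-0.71 ± 0.10, adjusted p = 0.000827). Each share was 8.33%, near that of all tested genes. These thyroid counts became 2 higher and 2 lower without cold 3, and 2 lower without RT 1.

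Several clock genes fell in the cold in the mutants. Of 19 genes of the circadian clock 9 were called lower (47.4%) and 2 higher, with a median of -0.85. Arntl, the activator of the loop, went from 1.53, 0.901 and 2.29 CPM to 18, 6.34 and 9.89 CPM (2.85 ± 0.60, adjusted p = 0.00765). The repressor Cry2 went from 65.3, 64.6 and 69.1 CPM to 33.2, 37 and 36.2 CPM (-0.90 ± 0.17, adjusted p = 0.00349). The output factor Hlf (-1.06 ± 0.19, adjusted p = 0.00274) and the receptor Nr1d2 (-0.85 ± 0.18, adjusted p = 0.00772) fell too. RT and cold did not overlap in these 4 genes. In controls 3 clock genes were called lower (median -0.18), and the interaction was called for 1 of the 19. The counts were 4 lower without RT 2 and 5 lower without cold 1, and 1 higher without any mutant library but RT 2. The time of day at which tissue was collected is not given in the sources used here, and its part in the result was not tested.

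Of 30 proliferation genes 12 were called higher, with a median log2 fold change of 1.06, and 28 had a positive one. None was called lower by edgeR, DESeq2 or voom, and in edgeR 0 were lower at an unadjusted p below 0.05. Ccnd1, cyclin D1, went from 29.5, 32.8 and 21.6 CPM to 81.8, 75.5 and 98.6 CPM (1.61 ± 0.22, adjusted p = 0.00069). Rrm2, which makes deoxynucleotides in dividing cells, went from 1.63, 1.3 and 0.689 CPM to 5.86, 6.23 and 4.12 CPM (2.16 ± 0.39, adjusted p = 0.00338), and the mitotic checkpoint kinase Bub1b rose by 1.46 ± 0.29 (adjusted p = 0.00531). The cold libraries were above the RT libraries in each. The count was 8 without RT 1 or RT 2, 6 without RT 3 and 4 without cold 1. The median in controls was 0.30.

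Stress, immune and insulin genes gave mixed lists, set here against 10.0% of all tested genes called higher and 7.42% called lower. The shares called higher were not far from 10.0% among heat shock (14.8%), proteasome (15.6%) and insulin genes (12%). Among interferon-stimulated genes that share was 3.85%. Of 29 genes of the unfolded protein and integrated stress response, 6 rose and 4 fell. Atf5, a factor of the mitochondrial stress response, went from 154, 186 and 180 CPM to 506, 633 and 453 CPM (1.62 ± 0.17, adjusted p = 0.000184), and the folate enzyme Mthfd2 from 2.6, 3.24 and 2.35 CPM to 15.9, 14.8 and 15.4 CPM (2.49 ± 0.40, adjusted p = 0.00163). Phgdh, the first enzyme of serine synthesis, fell from 90, 90.3 and 128 CPM to 22.4, 15 and 24.1 CPM (-2.32 ± 0.26, adjusted p = 0.000223). In heat shock and oxidative stress 4 of 27 rose and 4 fell. Sod2, the mitochondrial superoxide dismutase, rose by 1.12 ± 0.17 (adjusted p = 0.000987), and Hspa1a fell from 45.7, 54 and 17.3 CPM to 3.29, 3.04 and 2.86 CPM (-3.67 ± 0.69, adjusted p = 0.00634). Hspa1a and Hspa1b are near-identical copies, so the division of reads between them is uncertain. Of 32 proteasome and protein turnover genes 5 rose and edgeR called none lower, with 0 lower at an unadjusted p below 0.05, 0 by DESeq2 and 3 by voom. Of 26 interferon-stimulated genes 1 rose and 5 fell. Irf7, the factor that amplifies the interferon response, went from 16.4, 19.7 and 21.5 CPM to 7.69, 9.88 and 9.76 CPM (-1.08 ± 0.21, adjusted p = 0.00434) but rose in controls (0.87, adjusted p = 0.0284; interaction -1.95, adjusted p = 0.0171). Of 25 insulin and IGF1 genes 3 rose and 6 fell. Irs1, an insulin receptor substrate, fell from 107, 157 and 111 CPM to 49.1, 34 and 58 CPM (-1.41 ± 0.21, adjusted p = 0.000881), and Igfbp4, which binds IGF1, from 352, 375 and 442 CPM to 91.4, 87.4 and 186 CPM (-1.68 ± 0.26, adjusted p = 0.00118).

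The counts of these stress, immune and insulin lists also moved with single libraries. Lower stress response genes were 6 without RT 1 or cold 3 and 2 without RT 2, cold 1 or cold 2, and lower heat shock genes were 2 without RT 1, cold 1 or cold 3 and 1 without RT 2. Higher proteasome genes were 3 without RT 2, RT 3 or cold 1, 2 without cold 2 and 10 without cold 3, which also gave 1 lower. Lower interferon genes were 3 without RT 2, RT 3 or cold 2. Among insulin and IGF1 genes, 1 was higher without RT 1, RT 2 or cold 1. Those lower were 4 without RT 3 or cold 1.

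**Figure D3:**
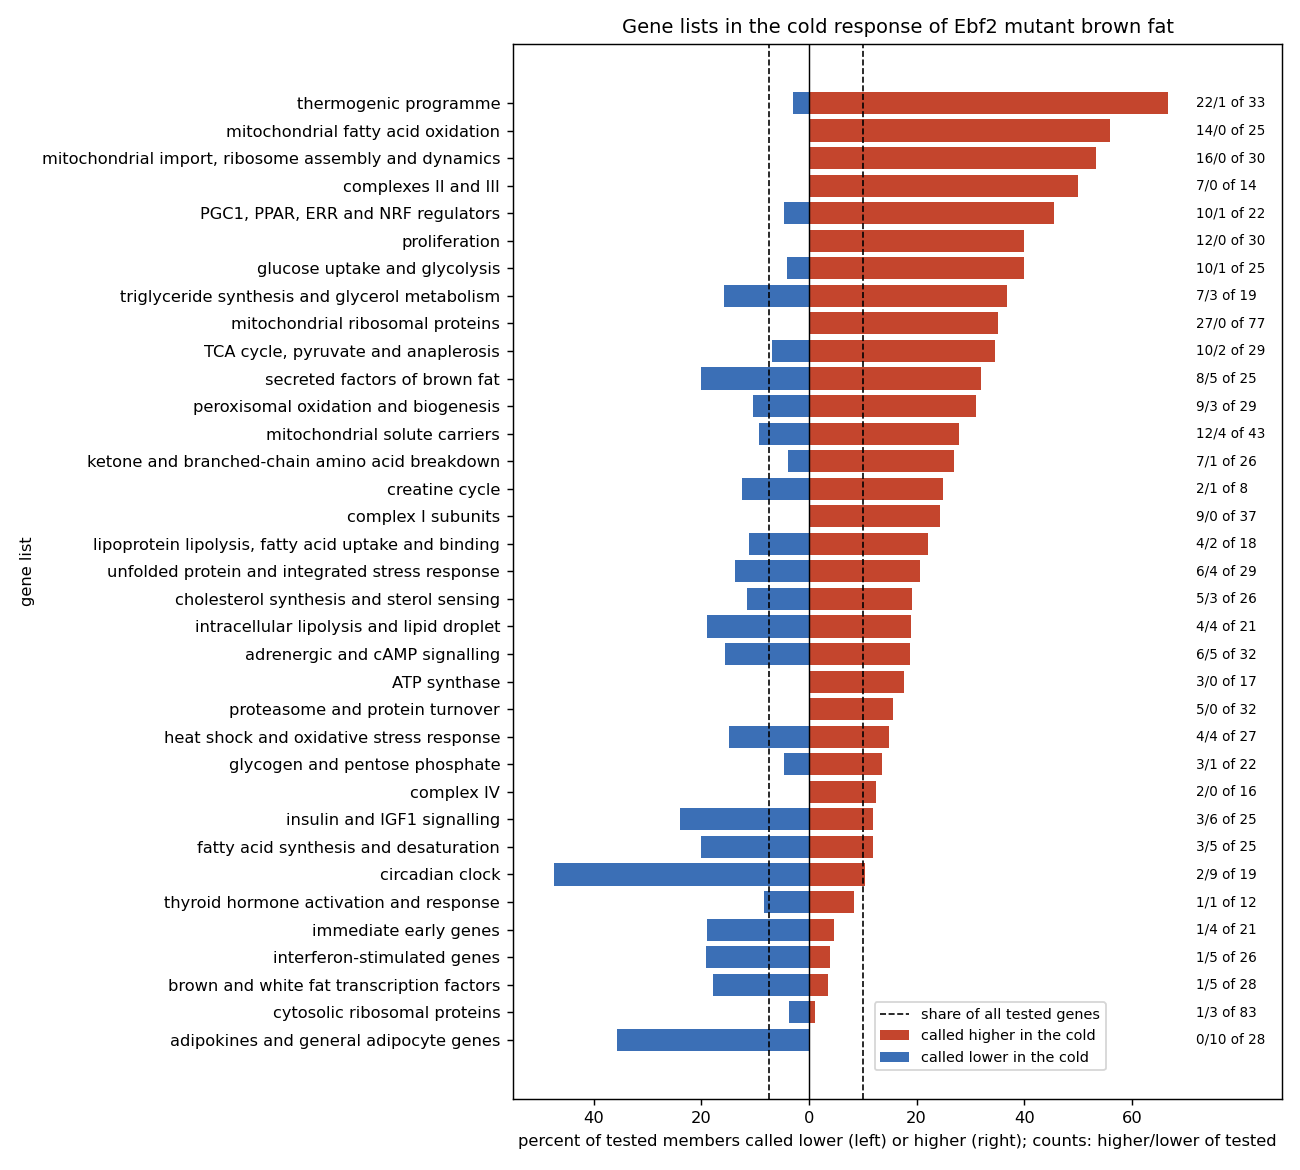
For 35 gene lists (y), the percent of tested members called higher (red, to the right) or lower (blue, to the left) in the cold response of Ebf2 mutant brown fat; dashed lines mark the shares among all tested genes, 10.0% higher and 7.42% lower. The thermogenic programme has 22 of 33 members called higher, and the adipokine list has 10 of 28 called lower.

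Markers of other cell types were followed in every library. Of eye lens genes 19 of 23 tested were called higher in the cold, with a median log2 fold change of 6.94, or 6.50 with genes at 0 in a group set to their bound. Their summed level was 2.6, 1.95 and 3.13 CPM in RT 1 to 3 and 286, 259 and 171 CPM in the cold, and 7 of the 24 listed genes were at 0 in all RT libraries. In controls the sum was 214 to 955 CPM at RT and 245 to 339 CPM in the cold. Each RT mutant library was below every other library. The beta crystallin Cryba1 went from 0.102, 0.144 and 0.125 CPM to 32.4, 31.9 and 21.6 CPM (7.83 ± 0.69, adjusted p = 0.000117), and the interaction was called for 14 of the 23 genes. Why lens transcripts differed between libraries was not tested. Epithelial and gland markers summed to 19.2, 11 and 11.1 CPM at RT and to 16, 11.9 and 329 CPM in the cold, so that cold 3 alone was high. Of 13 tested 1 was called higher, the milk protein gene Csn3, which had 0 counts at RT and 701 in the cold, at least 238-fold higher. Cold 3 was the highest of the cold libraries, and the fitted log2 fold change of 10.66 was 9.22 without it. That count was 3 without cold 1 and 5 without cold 2.

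Skeletal muscle markers summed to 1630, 145 and 25400 CPM at RT and to 316, 574 and 7520 CPM in the cold. The groups overlapped, and edgeR called 0 of 29 muscle genes in either direction, with 0 at an unadjusted p below 0.05 and 0 called by DESeq2 or voom. Fibroblast and matrix markers summed to 9110, 9340 and 9850 CPM at RT and to 5590, 4820 and 8600 CPM in the cold, a lower sum in every cold library. The median marker went the other way in cold 3, with log2 ratios to the RT mean of -0.77, -0.97 and 0.39 in cold 1 to 3, and a few abundant genes such as Gsn make up much of the sum. Of 26 members 3 were called lower and 1 higher, and without cold 3 13 were called lower. Gsn, gelsolin, fell from 3590, 3510 and 4140 CPM to 1140, 878 and 1500 CPM (-1.68 ± 0.22, adjusted p = 0.000533), and Dpt, dermatopontin of the matrix, from 266, 193 and 303 CPM to 91.2, 61.8 and 74 CPM (-1.75 ± 0.23, adjusted p = 0.000552). Pi16, a marker of fibroblast-like progenitors, fell by 1.12 on the log2 scale (adjusted p = 0.000651), and Loxl1, which crosslinks elastic fibres, rose by 1.35 ± 0.26 (adjusted p = 0.00468). Macrophage and antigen presentation markers summed to 691, 546 and 569 CPM and to 393, 509 and 287 CPM. With all libraries and no block, edgeR called 0 of these 26, with 4 lower and 0 higher at an unadjusted p below 0.05, against 1 lower by DESeq2, 4 lower by voom and 3 lower without cold 3. With the replicate number as a block edgeR called 1 lower, or 6 with only the mutant groups in the fit.

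Endothelial markers were higher in every cold library, at a sum of 1200 to 1510 CPM at RT and of 1790 to 1860 CPM in the cold. Of 20 vascular genes 5 rose and 1 fell. Eng, the endothelial coreceptor endoglin, rose by 0.84 ± 0.13 (adjusted p = 0.00134), and Aplnr, the apelin receptor, from 16.4, 19.5 and 9.59 CPM to 59.8, 48.4 and 30.7 CPM (1.61 ± 0.30, adjusted p = 0.00389). The member that fell, the nitric oxide synthase Nos3 (-0.49 ± 0.14, adjusted p = 0.0358), lost its call without RT 2 (adjusted p = 0.0812), RT 3 (0.128), cold 1 (0.0941) or cold 2 (0.128). Schwann cell markers summed to 241 to 617 CPM at RT and to 196 to 352 CPM in the cold, with 1 of 16 higher and 2 lower. The lower count was 0 without RT 1, cold 1 or cold 2, 1 without RT 2 or RT 3 and 4 without cold 3. Erythroid markers summed to 1800 to 2730 CPM at RT and 2170 to 3660 CPM in the cold, with overlap. Lymphocyte markers summed to 7.65 to 17.5 CPM over the mutant libraries. Liver and acute phase markers summed to 600, 709 and 975 CPM at RT and to 297, 138 and 980 CPM in the cold. The sum was thus lower in cold 1 and 2 than in any RT library, while 3 of the 10 genes tested were called higher. Of 13 smooth muscle and pericyte genes 1 was called lower, Cspg4, which lost its call without cold 1 (adjusted p = 0.0547).

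**Figure D4:**
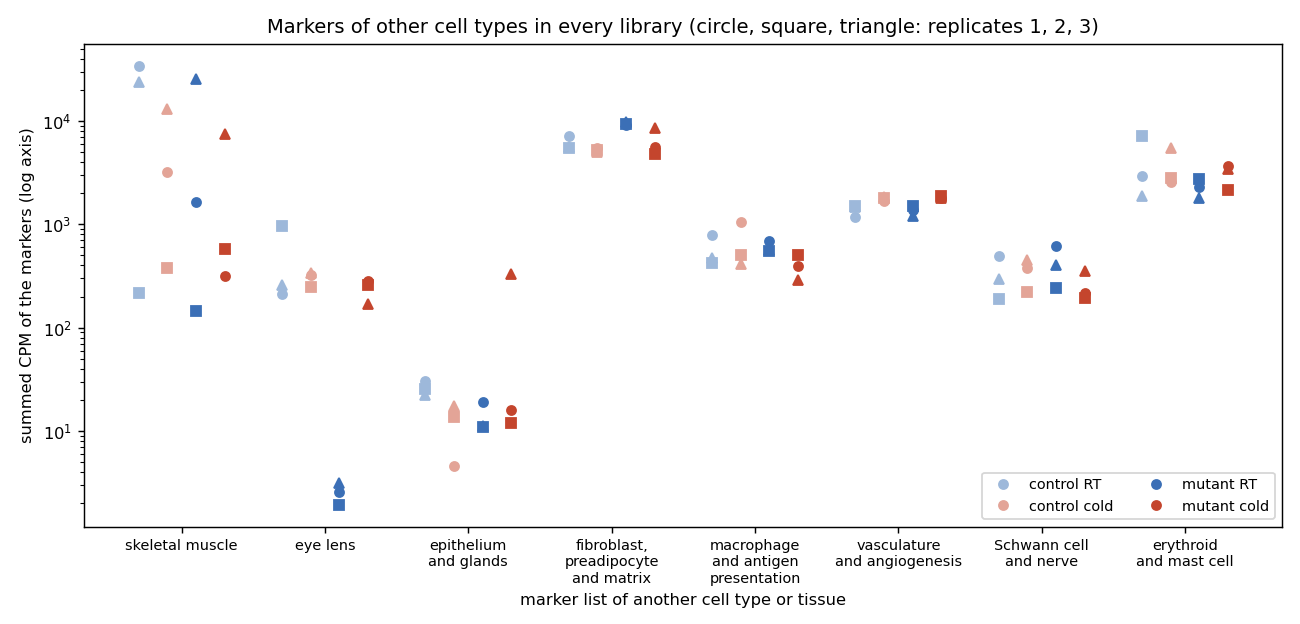
Summed CPM on a log axis (y) of 8 marker lists of other cell types or tissues (x) in each of the 12 libraries; colours give the group and symbol shapes the replicate number. Lens markers are at 1.95 to 3.13 CPM in the RT mutants and at 171 CPM or more in every other library, muscle markers span 145 to 34000 CPM, and epithelial markers are at 329 CPM in cold 3 of the mutants.

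Several genes fell far in the cold. Nnat, neuronatin of the endoplasmic reticulum, went from 323, 127 and 206 CPM to 20.6, 18.5 and 13.8 CPM (-3.63 ± 0.39, adjusted p = 0.000254). Vat1l went from 135, 162 and 113 CPM to 19.7, 12.3 and 8.91 CPM (-3.33 ± 0.35, adjusted p = 0.000192), and Celsr2, a cadherin of planar cell polarity, from 85.2, 164 and 144 CPM to 8.93, 8.51 and 27.5 CPM (-3.12 ± 0.52, adjusted p = 0.00321). Cdsn, the adhesion protein corneodesmosin, went from 97.2, 102 and 117 CPM to 7.23, 6.08 and 9.94 CPM (-3.76 ± 0.68, adjusted p = 0.00542), and the klotho relative Lctl from 86.7, 44.8 and 70.8 CPM to 4.66, 6.01 and 12.4 CPM (-3.13 ± 0.52, adjusted p = 0.0031). The largest falls were chosen among genes without overlap between RT and cold, so the separation of these 5 follows from the choice. Their calls held without each mutant library. Crtac1 (-3.47 ± 0.83) and Fam83a (-3.21 ± 0.68) were also among the 10 largest falls, as was Hspa1b (-3.44 ± 0.91, adjusted p = 0.0328), a near-identical copy of Hspa1a whose call was lost without any single mutant library but RT 3 (adjusted p up to 0.123). The call of Crtac1 (adjusted p = 0.0171) was lost without cold 1 (0.0757) and that of Fam83a (0.0105) without cold 1 (0.0524) or cold 2 (0.053).

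The cold response of the mutants was set beside that of the controls, whose fold changes come from other libraries. The calls of both are not independent, since 1 fit estimated the spread from all 12 libraries. Without mutant cold 3, for example, 1795 genes were called in controls. In controls 1010 genes were called (6.62%), 658 higher (4.31%) and 352 lower (2.31%). Called in both genotypes in the same direction were 616 genes, and 7 were called in opposite directions. The 616 are 23.1% of the calls in mutants, where 6.62% of all tested genes were called in controls. They are 61% of the calls in controls, where 17.4% of all tested genes were called in mutants. Of the 2663 genes called in mutants, 2381 (89.4%) had the same sign in controls. The share of all tested genes with the same sign in both is not given here, so 89.4% has no background beside it. For the 2663 called genes, the size of the change was also compared. Their median absolute log2 fold change was 0.90 in mutants and 0.46 in controls, and the genes had been chosen by their values in the mutants. Across the 15265 genes the fold changes had a Pearson r of 0.525 and a Spearman rho of 0.527, which describes genes and not replicates. Of the genes called in mutants only (2040), 49 had a called interaction, so for most of them a difference between the genotypes was not shown.

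The interaction of genotype and temperature was called for 73 genes (0.478%), 45 of them with a higher and 28 with a lower cold response in mutants, and 1869 had an unadjusted p below 0.05. The eye lens genes made up 14 of the 73. Among the others, Fam131c rose by 6.59 in mutants and by 2.88 in controls (interaction 3.70, adjusted p = 0.00531), and Slc25a34 by 5.32 and 1.90 (3.42, adjusted p = 0.02). Mean levels of Fam131c were 0.199 CPM at RT and 19.7 CPM in the cold in mutants, and 2.74 and 20.2 CPM in controls. Those of Slc25a34 were 5.6 and 223 CPM in mutants, and 33.6 and 125 CPM in controls. The kinase Sgk2 rose by 7.55 in mutants, with an interaction of 6.20 (adjusted p = 0.0469). Lamb3, a laminin chain of epithelial basement membranes, went from 5.12, 3.75 and 5.92 CPM to 42.3, 29.1 and 40.7 CPM in mutants (2.92 ± 0.32) and had a log2 fold change of -0.55 in controls (interaction 3.47, adjusted p = 0.00756). The guanine nucleotide exchange factor Arhgef37 went from 2.39, 3.71 and 3.95 CPM to 32.4, 31.6 and 37.6 CPM (3.34 ± 0.25; interaction 2.58, adjusted p = 0.00991). In the other direction, Wscd2 fell from 14.9, 12.3 and 15.4 CPM to 2.28, 2.93 and 3.04 CPM (-2.36 ± 0.25) and had a log2 fold change of 0.75 in controls (interaction -3.11, adjusted p = 0.00531). With the replicate number as a block 34 interactions were called. The number was 13 without the mutant library cold 1 and the same without control cold 2, 14 without control cold 3, and 25 without control cold 1. It was 33, 31 and 33 without RT 1, 2 and 3 of the mutants, 35 and 29 without control RT 2 and 3, and 204 without control RT 1.

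**Figure D5:**
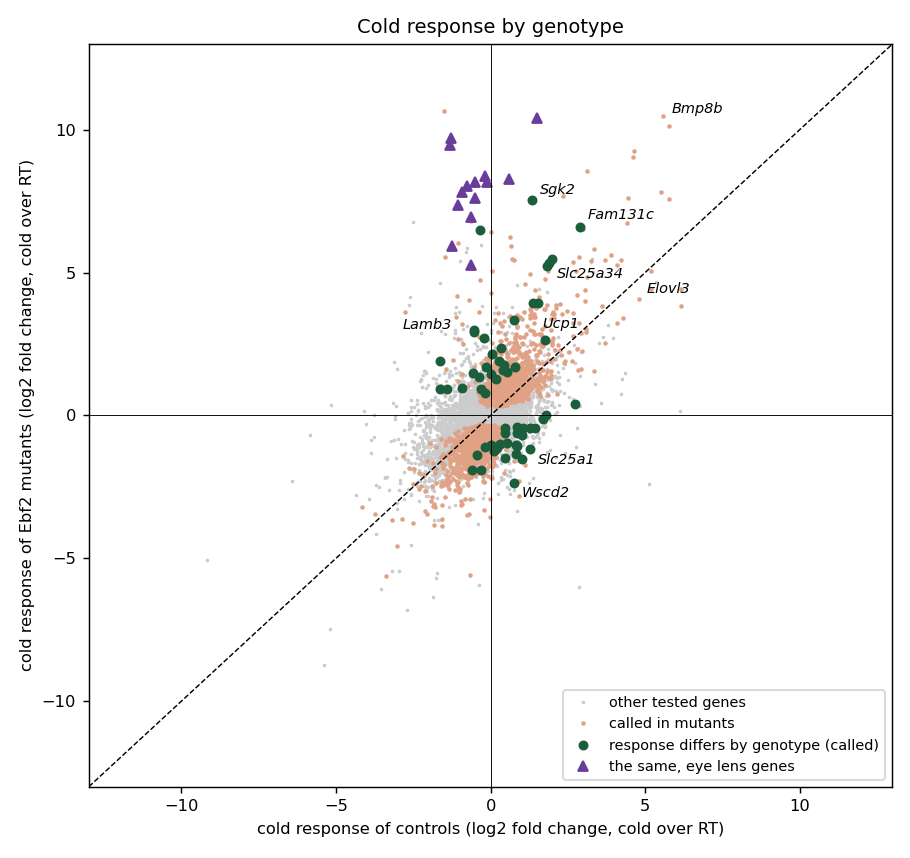
Log2 fold change of cold over room temperature in Ebf2 mutants (y) against that in controls (x) for the 15265 tested genes; the dashed line marks equal responses, orange points are called in mutants, green points and purple triangles have a called interaction. The lens genes (triangles) lie high on the y axis, and Bmp8b, at 10.49 in mutants and 5.59 in controls, lies far out on both.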

How the data were processed

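Brown adipose RNA was sequenced in 12 libraries, 3 in each of 4 groups. Per the labels' protocols, TRIzol and column purification gave the RNA, and the NEBNext Ultra RNA kit the libraries. The deposited table holds raw read counts per gene. Per the submitters' processing notes, STAR, featureCounts and the mm9 build were used. Tool versions, the annotation, whether counting used strand, and how multiply aligned reads were handled were not given in the sources used here. Sequences came from RefSeq on GRCm38.p6, another build than that of the counts.

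Counts were fitted with edgeR 4.0.16 (R 4.3.3; TMM, filterByExpr with a minimum count of 10 and a minimum total of 15, robust quasi-likelihood test) with all 12 libraries and 1 coefficient per group. Contrasts were cold minus RT in mutants, the same in controls, and their difference (the interaction). P-values were Benjamini-Hochberg adjusted over all 15265 tested genes and called below 0.05. CPM use TMM-scaled library sizes. Counting intervals are 95% and, like the floor of 3 counts per group, cover counting error only. List medians per library used log2(CPM + 0.5). Alternatives used DESeq2 1.42.0, limma 3.58.1 (voom with sample quality weights), other filters, a replicate block and left-out libraries. The procedure was tested on simulated data.

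The comparison and the 46 gene lists were chosen with earlier results of these data known. Kinases named Rps6k and pseudogenes were left out of the ribosomal lists. Named genes were a fixed set (Ebf2, Ebf1, Ebf3, Ucp1, Dio2, Ppargc1a, Elovl3, Cidea, Prdm16, Fgf21, Bmp8b, Pparg, Adipoq, Adrb3, Cpt1b, Gyk and Lep), the 10 largest non-overlapping called changes per direction at a mean of at least 1 CPM, up to 3 called members per list and direction by p (the 2 most abundant where none was called), and the 5 interactions per sign with the smallest p. Unnamed gene models and lists of other cell types were left out of the largest changes and interactions. Not every gene the rule selects is printed, and genes outside it are said to be chosen after their values were seen.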

Additional observations from a re-analysis of the deposited data

Results flagged for a closer look

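The results below are those in which the cold response differed between mutants and controls by the interaction test of edgeR, given as log2 differences (mutant response minus control response). There were 73 such genes at an adjusted p below 0.05. A called interaction can come from different RT levels as well as from different cold levels. Mean levels of Ldhb were 571 CPM at RT and 758 CPM in the cold in controls, and 252 and 761 CPM in mutants. For Insig1 they were 209 and 425 CPM in controls and 674 and 414 CPM in mutants. For Lamb3, where the cold levels differed, they were 5.5 and 3.75 CPM in controls and 4.93 and 37.4 CPM in mutants. Among lens genes the interaction was 8.77 for Cryba1, 7.68 for Cryga and 8.54 for Crygb. Higher responses in mutants than in controls gave 6.20 for the kinase Sgk2, 3.70 for Fam131c, 3.47 for the laminin chain Lamb3, 3.42 for the carrier Slc25a34, 2.58 for Arhgef37 and 2.58 for the kininogen Kng2. The value was 2.35 for Als2cr12, 1.72 for the purinergic receptor P2ry1, 1.19 for Ldhb, 0.89 for Alpl and 0.89 for Slc25a17. Lower responses in mutants gave -3.11 for Wscd2, -2.48 for the citrate carrier Slc25a1, -2.16 for Rbp4, -1.95 for Irf7 and -1.86 for Sik1. They gave -1.72 for Insig1, -1.46 for the acyltransferase Mogat1 and -1.36 for Fam107b.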

How the results depend on the processing

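All genes called in the mutant cold response kept their direction under each alternative in which they were tested. The alternatives reuse the libraries by which these genes were chosen, so the kept direction is no separate support. The number called in mutants (2663) was 5118 with voom, 1633 with only the compared groups in the fit and 1734 without the muscle-rich library, and 1466 to 3630 when 1 mutant library was left out. The number in controls (1010) was 1949 with DESeq2, 3435 with voom, 238 without the muscle-rich libraries, 1795 without mutant cold 3 and 1716 without mutant RT 3 and cold 3, and 313 to 1795 when 1 library was left out. The number of interactions (73) was 428 with DESeq2, 1209 with voom, 48 without the robust fit, 34 with the replicate block and 24 without the muscle-rich libraries, and 13 to 204 when 1 library was left out. Ebf2 was -0.71 without mutant RT 1 and -0.85 without mutant cold 2, with an adjusted p of 0.0833 in both, and ranged from -0.71 to -1.12 when 1 library was left out. No label says that replicate numbers pair the mutant libraries, and the check depended on the scale. Deviations of same-numbered libraries correlated at 0.0272, 0.151 and 0.577 when log2 CPM used a prior count of 1, and at 0.264, 0.186 and 0.62 on log2(CPM + 1). On the latter scale RT 1 correlated best with cold 2 (0.381) and RT 2 with cold 1 (0.502), so pairing was not settled. With the replicate block 2671 genes were called in mutants (2464 shared with the fit without it), and Ebf2 was -0.91. The interaction could not be fitted with only the groups compared, since it needs all 4. The cause of these shifts was not tested. With 3 libraries per group, and with RT 3 and cold 3 apart from the others, list counts rest on few libraries.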
